A study of Mus musculus with 12 samples.

Results

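Tumours of the melanoma line labelled galectin-3 expressing, grown in hosts without galectin-3, were compared with tumours of the line labelled galectin-3 silenced, grown in hosts that have the gene. By the labels, galectin-3 in the first group comes from the tumour cells alone and in the second from the host alone. The samples were chosen by their titles: 3 arrays of Gal3 -/- mice injected with Tm1N3, and 3 arrays of wild-type mice injected with Tm1G3, 6 of the 12 arrays of the series. All 1246 probe sets were compared, of which 963 carried 1 gene symbol, on a focused Affymetrix array of lectin, glycan, cytokine and growth factor genes. The remaining 6 arrays hold Tm1N3 in wild-type hosts, where both tumour and host are labelled as having galectin-3, and Tm1G3 in Gal3 -/- hosts, where neither is. The stated question of the series was how tumour-derived and stromal galectin-3 differ in their bearing on melanoma growth.

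Both groups are syngeneic mice bearing melanoma cells, and they differ in 2 ways at once, the injected line and the host genotype. Within the 6 arrays those 2 differences cannot be told apart. The series text describes a melanoma line with a silenced galectin-3 gene that was given a galectin-3 coding plasmid, and does not say which of the 2 line names carries it. Whether either line is 1 clone, which exons the host allele lacks, and the age, sex and strain of the mice are not given in the sources used here. The labels do not state that each replicate is a separate animal, so the p-values reflect the spread among these samples alone, which may be technical, and the small number of arrays limits their precision.

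Galectin-3, encoded by Lgals3, is a lectin that binds galactose-containing glycans on glycoproteins and glycolipids. It acts inside cells and, once secreted, crosslinks receptors at the surface and in the matrix. Macrophages, other myeloid cells, epithelia and many melanomas make it, so both the cancer cells and the stroma of a tumour can supply it. The enzymes that build or cap galactose chains decide which ligands it finds, and the array holds many of them.

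Levels are log2 RMA values, so a difference of 1 is a doubling, and the arrays of a group are always given in the order of replicates 1, 2 and 3. Lgals3 itself read 9.35, 9.69 and 10.55 in Tm1N3 tumours of Gal3 -/- hosts and 9.52, 9.34 and 9.99 in Tm1G3 tumours of wild-type hosts. These levels overlapped, with means of 9.86 ± 0.62 in the Tm1N3 tumours and 9.61 ± 0.34 in the Tm1G3 tumours (SD, n = 3 each). The difference of 0.25 ± 0.33 (limma SE) had a two-sided exact permutation p of 0.6, where 0.1 is the smallest that 3 against 3 allows. Without replicate 3 of the Tm1N3 tumours it was -0.097. Tm1G3 tumours of Gal3 -/- hosts, labelled as lacking galectin-3 in both compartments, still read 9.15, 9.80 and 8.98. Tm1N3 tumours of wild-type hosts, labelled as having it in both, had a mean 0.66 higher than these (two-sided exact permutation p = 0.2). The probe set is of the kind that shares probes with similar sequences, and where it lies relative to the deletion is not given, so it checks neither the line nor the host label. The groups are therefore called below by line and host.

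The first principal component held 37.2% of the variance. It put replicate 3 of the Tm1N3 tumours at -7.37 and replicate 1 of the Tm1G3 tumours at -8.48. Replicate 1 of the Tm1N3 tumours lay about as far out on the other side, at 8.33. The second, 19.2%, separated the lines, with Tm1N3 in Gal3 -/- hosts between -4.66 and -0.44 and Tm1G3 in wild-type hosts between 2.04 and 4.29. Between any 2 of the 12 arrays the correlation across probe sets ran from 0.976 to 0.998, and no 2 were identical.

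Of the 1246 probe sets, 8 had an adjusted limma p under 0.05, 0.642% of those tested. 3 were higher and 5 lower in Tm1N3 tumours of Gal3 -/- hosts. The higher ones were Mcoln3, an ion channel in endosomal and lysosomal membranes, B3galt4, a galactosyltransferase of ganglioside synthesis, and Angptl2, a secreted angiopoietin-like protein. The lower ones were Il18, a cytokine of the interleukin-1 family, Frem1, a matrix protein of basement membranes, Il17rd, a membrane protein that restrains fibroblast growth factor signalling, Galnt10, an enzyme that starts mucin-type O-glycans, and Bmp15, a growth factor of the TGF beta family known from oocytes. Without replicate 1 of the Tm1G3 tumours 11 probe sets passed, 7 of them among the 8, and without replicate 3 of the Tm1N3 tumours 10 passed, 6 of them among the 8. In these bulk samples, fewer cells of a type and less RNA per cell cannot be told apart.

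The promoters of Il18 and Mcoln3 are shown because these genes had the largest differences among the 8, in opposite directions. Each window of 300 bases spans the RefSeq start in GRCm38.p6 and is printed 5′ to 3′ along the gene, with CpG pairs in capitals. Il18 lies at chr9:50554450-50554749 on the + strand, and Mcoln3 at chr3:146121541-146121840 on the + strand.
Il18: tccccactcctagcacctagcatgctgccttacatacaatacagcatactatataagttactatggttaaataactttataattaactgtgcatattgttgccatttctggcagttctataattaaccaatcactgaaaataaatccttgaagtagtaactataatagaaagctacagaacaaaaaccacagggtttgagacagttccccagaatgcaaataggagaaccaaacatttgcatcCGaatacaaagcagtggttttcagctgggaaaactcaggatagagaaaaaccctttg
Mcoln3: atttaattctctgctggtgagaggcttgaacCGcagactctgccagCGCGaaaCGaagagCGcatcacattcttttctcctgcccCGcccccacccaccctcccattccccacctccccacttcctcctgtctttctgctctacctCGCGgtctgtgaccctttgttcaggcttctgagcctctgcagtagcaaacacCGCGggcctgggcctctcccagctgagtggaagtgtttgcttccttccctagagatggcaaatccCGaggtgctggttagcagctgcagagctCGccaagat
The Il18 window holds 1 CpG and 36.7% G and C, and the Mcoln3 window 12 CpG and 57.7%, against a median of 7 CpG over 32851 mouse promoter windows of the table. Among the other called genes, the windows of B3galt4 and Galnt10 hold 20 and 28 CpG, Il17rd 19, Angptl2 9, Bmp15 2, and the pair of Frem1 starts 5 and 8. Searched on both strands, the E-box CACGTG was in 7.15% of all windows, the E-box CATGTG in 14.2% and the AP-1 motif TGANTCA in 7.81%. None of the 3 was found in a window of the 8 genes, which says only that these letters are not there.

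Il18 read 6.43, 6.28 and 6.25 in Tm1N3 tumours of Gal3 -/- hosts, against 7.38, 7.60 and 7.64 in Tm1G3 tumours of wild-type hosts. The groups lay far apart, with every Tm1N3 array lower than every Tm1G3 array. The difference was -1.22 ± 0.11 on the log2 scale (limma, adjusted p = 0.000371), a level 2.33-fold lower in the Tm1N3 tumours. Interleukin-18 is known for driving interferon gamma production in T and NK cells. Ifng itself differed by 0.031 (limma, adjusted p = 0.931). The interleukin-18 receptor genes Il18r1 and Il18rap differed by 0.016 and -0.092 (adjusted p = 0.971 and 0.809). Ifngr2, a chain of the interferon gamma receptor, differed by -0.30 ± 0.078 (adjusted p = 0.107), and Ifngr1 by -0.032 (adjusted p = 0.95). Il12a, the p35 chain of interleukin-12, which acts together with interleukin-18, differed by -0.20 ± 0.07 (adjusted p = 0.247). The interleukin-12 receptor genes Il12rb1 and Il12rb2 differed by -0.59 and -0.0029 (adjusted p = 0.178 and 0.991).

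Frem1 read 3.73, 3.83 and 3.75 in Tm1N3 tumours of Gal3 -/- hosts, against 4.71, 4.61 and 4.72 in Tm1G3 tumours of wild-type hosts. Replicates lay close together within each group, and the groups did not overlap. The difference was -0.91 ± 0.085 (limma, adjusted p = 0.000371), 1.88-fold lower in the Tm1N3 tumours. Frem1 was a dim probe set, with a mean level of 4.24 over the 12 arrays, at percentile 25.6 of all probe sets. A filter that left out the 25% of probe sets with the lowest mean level only just kept it (adjusted p = 0.000393). Il17rd read 4.07, 4.25 and 3.99 in the Tm1N3 tumours, against 4.90, 5.06 and 4.73 in the Tm1G3 tumours, again without overlap. Its difference was -0.79 ± 0.13 (adjusted p = 0.0187), and the call was lost without replicate 1 or 3 of the Tm1N3 tumours or replicate 2 of the Tm1G3 tumours. Frem1 and Il18 passed without any 1 of the 12 arrays, and they were the 2 probe sets that passed when the 6 arrays were fitted alone (adjusted p = 0.00991 for each).

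Galnt10 read 7.64, 7.74 and 7.48 in Tm1N3 tumours of Gal3 -/- hosts, against 8.41, 8.10 and 8.38 in Tm1G3 tumours of wild-type hosts. The groups lay apart, and the difference was -0.68 ± 0.11 (limma, adjusted p = 0.0187). The call was lost without replicate 1 or 3 of either group. Bmp15 read 3.63, 3.55 and 3.42 in the Tm1N3 tumours and 4.09, 3.97 and 4.20 in the Tm1G3 tumours, a difference of -0.55 ± 0.073 (adjusted p = 0.00647). The groups lay apart and the call was kept without any 1 of the 12 arrays, but the probe set shares probes with similar sequences, and a filter that left out the 25% of probe sets with the lowest mean level removed it.

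Mcoln3 read 8.74, 8.54 and 8.26 in Tm1N3 tumours of Gal3 -/- hosts, against 7.20, 7.60 and 7.03 in Tm1G3 tumours of wild-type hosts. Every Tm1N3 array was higher than every Tm1G3 array. The difference was 1.24 ± 0.18 (limma, adjusted p = 0.0102), 2.36-fold higher in the Tm1N3 tumours, and it passed without any 1 of the 12 arrays. In mice, a mutant form of this channel causes deafness and pigment loss in varitint-waddler animals. B3galt4 read 6.19, 6.08 and 6.16 in the Tm1N3 tumours, against 5.72, 5.64 and 5.74 in the Tm1G3 tumours. Its difference of 0.44 ± 0.066 was small but larger than the spread (adjusted p = 0.0107), and the call was lost without replicate 2 of the Tm1G3 tumours. Angptl2 read 9.24, 9.53 and 9.69 in the Tm1N3 tumours, against 8.98, 8.88 and 8.85 in the Tm1G3 tumours. It differed by 0.58 ± 0.099 (adjusted p = 0.0204), its probe set shares probes with similar sequences, and the call was lost without replicate 2 of the Tm1N3 tumours or replicate 2 or 3 of the Tm1G3 tumours.

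**Figure D1:**
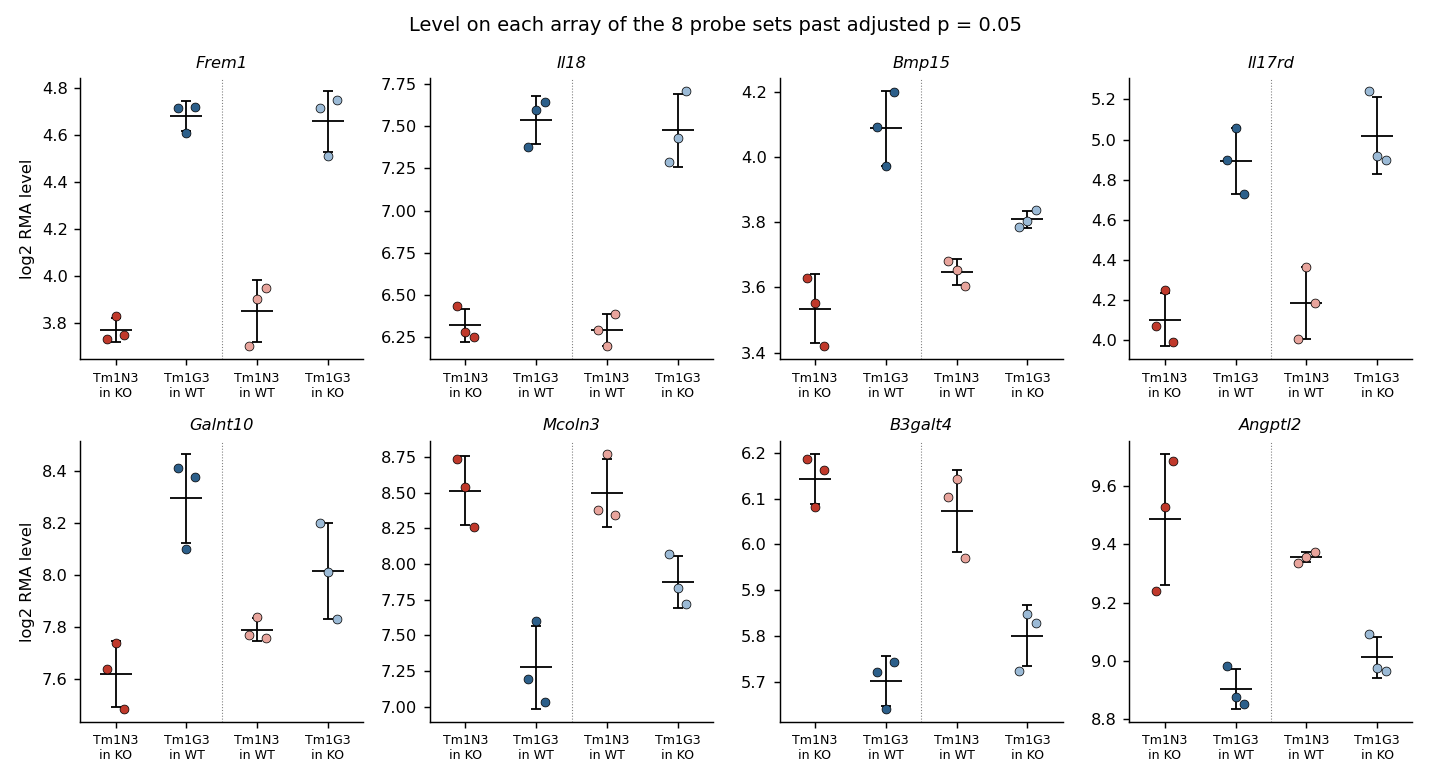
Level (log2 RMA, vertical axis) of the 8 called probe sets (adjusted p under 0.05), 1 point per array, with mean and SD of 3 arrays as bars; each vertical axis has its own range and does not start at 0. Left of the dotted line are Tm1N3 in Gal3 -/- (KO) and Tm1G3 in wild-type (WT) hosts, which do not overlap for any of the 8; right of it are the other 6 arrays, Tm1N3 in wild-type and Tm1G3 in Gal3 -/- hosts.

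The other 6 arrays hold the same lines with the hosts exchanged. Averaged over both hosts, the line part of each difference (Tm1N3 minus Tm1G3), and averaged over both lines, the host part (Gal3 -/- minus wild type), add up to the difference between the 2 groups. Over all probe sets 53 passed in the line part, 4.25% of those tested, and 0 in the host part, 0.0%. The smallest adjusted p of the host part was 0.226, and 78 probe sets had an unadjusted limma p under 0.05 there. For all 8 called genes the line part was larger than the host part and passed the threshold. These parts share the 6 arrays with the comparison, so the values are set side by side and are no second test of it.

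For Il18 the line part was -1.20 ± 0.08 and the host part -0.017 ± 0.08, with a 95% interval of the host part of -0.20 to 0.16. Frem1 had a line part of -0.86 ± 0.06 and a host part of -0.052 ± 0.06 (95% interval -0.18 to 0.081). For Il17rd the line part was -0.81 ± 0.091 and the host part 0.021 ± 0.091 (95% interval -0.18 to 0.22). In these 3 genes the host part was within its error of 0. The called genes were chosen by the sum of line part and host part, which favours a host part of the same sign as the line part. A host part of the same sign as the line part, with an interval that leaves out 0 and an adjusted p above 0.05, was measured for the next 3. Bmp15 had a host part of -0.20 ± 0.052 (limma, adjusted p = 0.68) beside a line part of -0.36 ± 0.052. Mcoln3 had a host part of 0.31 ± 0.13 (adjusted p = 0.749) beside a line part of 0.93 ± 0.13. Galnt10 had a host part of -0.23 ± 0.079 (adjusted p = 0.749) beside a line part of -0.45 ± 0.079. B3galt4 and Angptl2 had host parts of 0.085 ± 0.046 and 0.12 ± 0.07 beside line parts of 0.36 ± 0.046 and 0.46 ± 0.07.

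**Figure D2:**
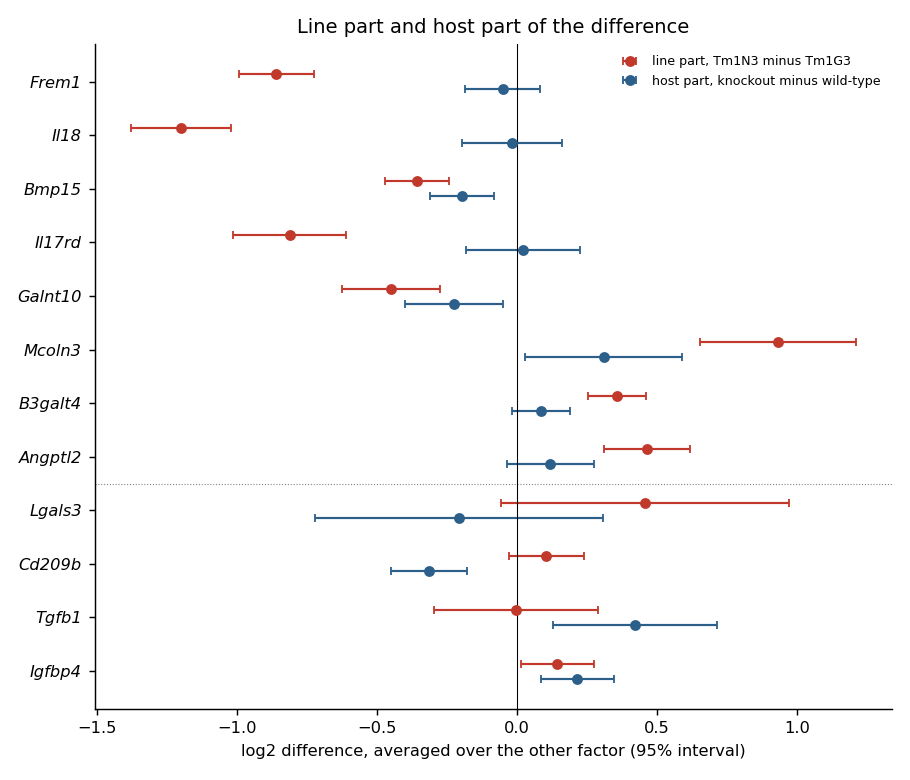
Line part (Tm1N3 minus Tm1G3, averaged over hosts) and host part (Gal3 -/- minus wild type, averaged over lines) of the log2 difference, with 95% intervals from limma, for the 8 called genes above the dotted line and for Lgals3, Cd209b, Tgfb1 and Igfbp4 below it. For Il18 the line part is -1.20 and the host part -0.017, whereas for Cd209b, Tgfb1 and Igfbp4 the host part is larger in size than the line part; no host part passed the threshold.

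The other 6 arrays also give a comparison that shares no array with the first, Tm1N3 in wild-type hosts minus Tm1G3 in Gal3 -/- hosts, in which the line changes the same way and the host the opposite way. There 11 probe sets passed, 0.883% of those tested. All 8 called genes had the same sign in it, and for 7 of them the groups did not overlap. Of the 187 probe sets without overlap in the first comparison, 60 separated the same way in this one and 9 the opposite way. Of the 8 called genes 3 passed, which is 37.5% of the 8 and 27.3% of the 11. Il18 read 6.29, 6.20 and 6.39 in Tm1N3 tumours of wild-type hosts, against 7.29, 7.43 and 7.71 in Tm1G3 tumours of Gal3 -/- hosts, a difference of -1.18 ± 0.11 (limma, adjusted p = 0.000979). Frem1 differed there by -0.81 ± 0.085 (adjusted p = 0.00116) and Il17rd by -0.83 ± 0.13 (adjusted p = 0.0127), close to their values in the first comparison.

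The other 5 did not pass there. Mcoln3 read 8.38, 8.77 and 8.34 in Tm1N3 tumours of wild-type hosts, against 8.07, 7.83 and 7.72 in Tm1G3 tumours of Gal3 -/- hosts, and differed by 0.62 ± 0.18 (limma, adjusted p = 0.142), where the first comparison gave 1.24 ± 0.18. Angptl2 differed by 0.34 ± 0.099 (adjusted p = 0.142) and B3galt4 by 0.27 ± 0.066 (adjusted p = 0.0838). Galnt10, the 1 gene of the 8 whose groups overlapped there, differed by -0.22 ± 0.11 (adjusted p = 0.415), and Bmp15 by -0.16 ± 0.073 (adjusted p = 0.372). The gap between the 2 comparisons is 2 host parts, for which no probe set passed. Choosing genes by the first comparison also favours smaller values in the other.

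Across all 1246 probe sets the 2 comparisons had a Pearson correlation of 0.523, and 673 (54.0%) had the same sign. Over the 1192 probe sets that passed in none of these comparisons the correlation was 0.310. Both values are across probe sets, which are not independent, and the 2 sets of arrays were normalised together. Of the 11 called with the hosts exchanged, 10 had the same sign here. The exception was Cd209e, a C-type lectin gene related to DC-SIGN, at -0.092 ± 0.064 here (adjusted p = 0.689) and 0.39 ± 0.064 there (adjusted p = 0.0148). Among genes described below as short of the threshold, Hs3st1 (2.20), Slc35f1 (-1.85), Il3ra (1.15), Fbln5 (0.90) and Havcr2 (-0.51) passed there. Their adjusted limma p there lay between 0.00518 and 0.0247.

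**Figure D3:**
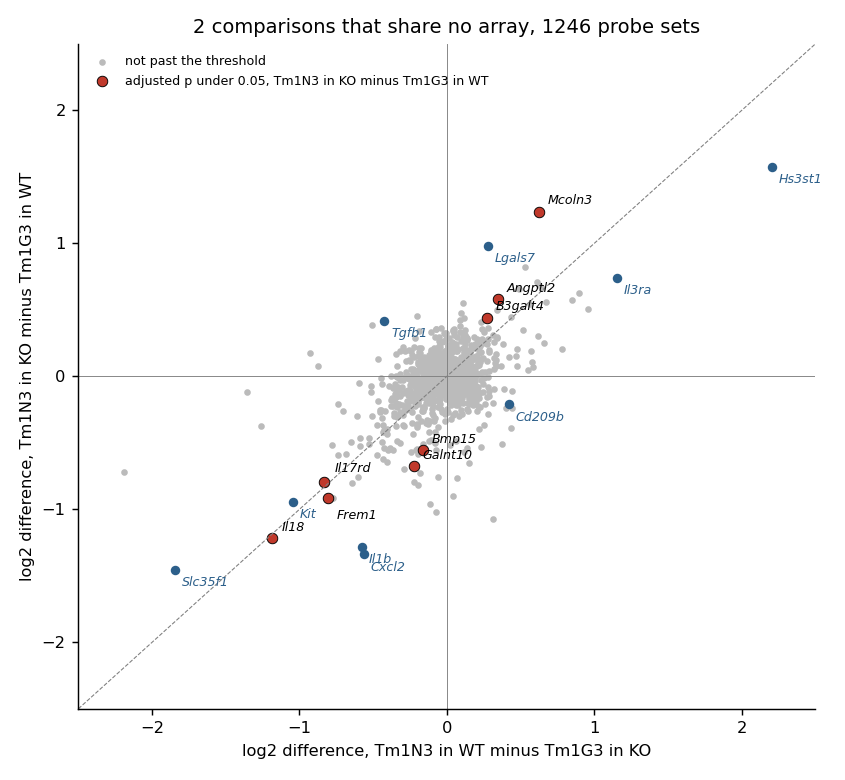
Log2 difference of each of 1246 probe sets in the comparison of Tm1N3 in Gal3 -/- hosts minus Tm1G3 in wild-type hosts (vertical axis) and in the comparison of the other 6 arrays, Tm1N3 in wild-type hosts minus Tm1G3 in Gal3 -/- hosts (horizontal axis). The 8 called probe sets (red) have the same sign on both axes, Il18 and Frem1 close to the dashed line of equal values and Mcoln3 above it; blue marks other genes named in the text.

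Unadjusted, 137 probe sets had a limma p under 0.05, 11.0% of those tested, 63 higher and 74 lower in Tm1N3 tumours of Gal3 -/- hosts. In 187, or 15.0%, the 3 arrays of one group did not overlap those of the other. Over all probe sets the median difference was -0.015, and 44.6% were positive. Of the 8 that differed by more than 1 on the log2 scale, 2 passed, Il18 and Mcoln3, and the other 6 were Hs3st1, Slc35f1, Cxcl2, Il1b, Ccl3 and Cxcl12.

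Hs3st1, a sulfotransferase that adds the 3-O-sulfate of heparan sulfate, read 5.29, 6.80 and 5.88 in Tm1N3 tumours of Gal3 -/- hosts, against 4.64, 4.36 and 4.25 in Tm1G3 tumours of wild-type hosts. The groups did not overlap, but the Tm1N3 arrays varied widely, and the difference of 1.57 ± 0.37 did not pass (limma, adjusted p = 0.0759). Slc35f1, of a transporter family with nucleotide sugar carriers, read 5.12, 5.78 and 5.66 in the Tm1N3 tumours, against 6.61, 7.71 and 6.61 in the Tm1G3 tumours, a difference of -1.46 ± 0.31 (adjusted p = 0.0592). Both probe sets share probes with similar sequences, and both passed with the hosts exchanged. Kit, the receptor for stem cell factor on melanocytes and mast cells, read 4.91, 5.76 and 5.41 in the Tm1N3 tumours, against 6.21, 6.36 and 6.35 in the Tm1G3 tumours. Every Tm1N3 array was lower, and the difference of -0.94 ± 0.21 missed the threshold (adjusted p = 0.0633). The line part of Kit, -0.99 ± 0.15, passed (limma, adjusted p = 0.00379), and its difference with the hosts exchanged did not (-1.045 ± 0.21, adjusted p = 0.0516). Mcam, an adhesion molecule of melanoma and endothelium, differed by 0.71 ± 0.21 (adjusted p = 0.178) with overlapping groups.

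Inflammatory and myeloid genes varied between the libraries within both groups. Il1b, an inflammatory cytokine of myeloid cells, read 5.98, 6.57 and 7.49 in Tm1N3 tumours of Gal3 -/- hosts and 11.08, 6.46 and 6.35 in Tm1G3 tumours of wild-type hosts. Replicate 1 of the Tm1G3 tumours stood alone above the other 5 arrays, and the difference of -1.28 ± 1.03 (limma, adjusted p = 0.755) became 0.27 without it. Cxcl2, a chemokine that draws neutrophils, read 3.92, 4.88 and 7.28 in the Tm1N3 tumours and 10.00, 5.19 and 4.90 in the Tm1G3 tumours. Its difference of -1.34 ± 1.26 (adjusted p = 0.798) became 0.31 without replicate 1 of the Tm1G3 tumours and -2.30 without replicate 3 of the Tm1N3 tumours. Ccl3, a macrophage chemokine, differed by -1.02 ± 0.72 (adjusted p = 0.694), by -0.041 without replicate 1 of the Tm1G3 tumours and by -1.54 without replicate 3 of the Tm1N3 tumours.

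Cxcl12, a chemokine of stromal cells, had 2 probe sets, at -1.07 ± 0.69 and -0.21, and neither passed. The first of these values was -1.89 without replicate 3 of the Tm1N3 tumours and -0.57 without their replicate 1. Summed on the linear scale, the 4 measured neutrophil markers lay between 142 and 422 in the Tm1N3 tumours and between 184 and 3370 in the Tm1G3 tumours. None of the 4 passed. The 3370 came from replicate 1 of the Tm1G3 tumours and was mostly Il1b and Cxcl2, at 11.08 and 10.00 there. Csf3r and Cxcr2, the receptor genes of the list, read 6.97 and 5.70 on that array. They differed by -0.54 and -0.11 between the groups. For the 8 macrophage and monocyte markers the sum lay between 557 and 1841 in the Tm1N3 tumours and between 888 and 1553 in the Tm1G3 tumours. 1 of these 8 had a positive difference and none passed. Adgre1, the F4/80 antigen, read 5.07, 5.23 and 6.91 in the Tm1N3 tumours and 7.98, 5.59 and 6.51 in the Tm1G3 tumours. Csf1r, the receptor macrophages need for survival, read 6.55, 7.03 and 8.55 in the Tm1N3 tumours and 8.50, 7.16 and 8.10 in the Tm1G3 tumours, with replicate 3 of the Tm1N3 tumours the highest of the 6.

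Stromal genes also varied within the groups. Dcn, decorin of fibroblasts, read 7.47, 7.89 and 9.86 in the Tm1N3 tumours and 9.56, 8.53 and 9.60 in the Tm1G3 tumours. Its groups overlapped through replicate 3 of the Tm1N3 tumours, and the difference of -0.82 ± 0.67 did not pass (limma, adjusted p = 0.758). It was -1.54 without that library and -0.35 without replicate 1 of the Tm1N3 tumours. The 5 fibroblast and pericyte markers summed to between 441 and 1633 in the Tm1N3 tumours and between 699 and 1213 in the Tm1G3 tumours, and the 6 endothelial markers to between 1312 and 2331 in the Tm1N3 tumours and between 1506 and 2001 in the Tm1G3 tumours. None of these 2 lists' genes passed. The 5 T and NK cell markers summed to between 325 and 360 in the Tm1N3 tumours and between 402 and 539 in the Tm1G3 tumours, but their mean log2 levels overlapped, between 4.58 and 4.72 in the Tm1N3 tumours and between 4.66 and 4.98 in the Tm1G3 tumours. 2 of the 5 had a positive difference and none passed. Ccl5, a chemokine those cells make and a member of that list, read 8.18, 8.05 and 8.19 in the Tm1N3 tumours against 8.41, 8.69 and 8.85 in the Tm1G3 tumours, and did not pass (difference -0.51 ± 0.17, adjusted p = 0.202). This gene made up most of the T and NK cell sum on each of these arrays. Cd2, Klrd1, Klrk1 and Ifng, the rest of the list, differed by -0.11, -0.16, 0.029 and 0.031. Il18 stood lower in the Tm1N3 tumours beside these marker levels, and their part in it was not tested. Sums of B cell markers (2 measured) lay between 83.6 and 90.8 in the Tm1N3 tumours and between 80.5 and 99.0 in the Tm1G3 tumours, without a call. The 6 dendritic cell markers summed to between 177 and 202 in the Tm1N3 tumours and between 155 and 192 in the Tm1G3 tumours, and the 4 mast cell and eosinophil markers to between 59.8 and 63.3 in the Tm1N3 tumours and between 60.5 and 63.1 in the Tm1G3 tumours, again without a call. On this log2 scale, whose lowest value is 2.14, no marker is listed at 0 and absence cannot be read. The line itself could be checked by only 2 of 11 melanocyte markers, Kit and Mcam, since the other 9 had no named probe set here.

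**Figure D4:**
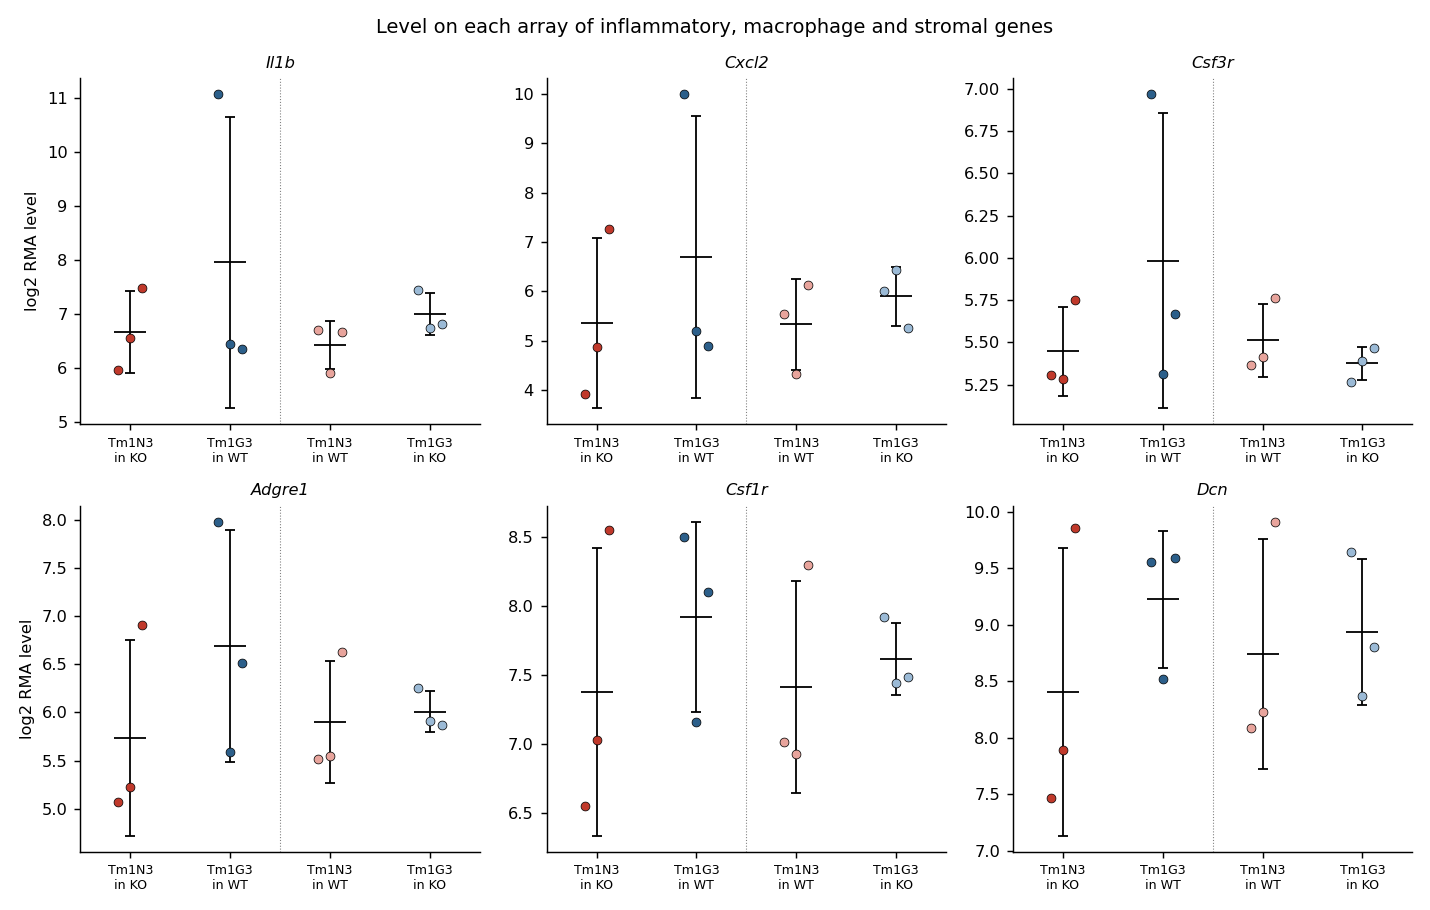
Level (log2 RMA, vertical axis, own range per gene and not starting at 0) of 6 inflammatory, macrophage and stromal genes on each array, with mean and SD of 3 arrays; left of the dotted line Tm1N3 in Gal3 -/- (KO) and Tm1G3 in wild-type (WT) hosts, right of it the other 6 arrays. Replicate 1 of Tm1G3 in wild-type hosts is the highest point for Il1b (11.08) and Cxcl2 (10.00), and no gene shown separates the first 2 groups.

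Gene families of the array are described by the number of measured members with a positive difference, their median and those that passed, beside 44.6% positive, a median of -0.015 and 0.642% called over all probe sets. Each family median is followed in brackets by its value without replicate 1 of the Tm1G3 tumours and then without replicate 3 of the Tm1N3 tumours. Over all probe sets those values were -0.0071 and -0.0032. Of the 23 family medians 11 changed sign without 1 of these 2 libraries, 5 without the first and 7 without the second. Family medians without replicate 1 of the Tm1N3 tumours, which lay at the other end of the first principal component, were not computed. Of 39 interleukins and interferons 9 were positive, with a median of -0.067 (-0.035 and -0.048), and Il18 passed as lower. Of 29 chemokines 7 were positive, with a median of -0.14 (-0.049 and -0.47), and none passed. Of 47 interleukin receptors 15 were positive, with a median of -0.03 (-0.03 and -0.08), and Il17rd passed as lower. Of 20 chemokine receptors 8 were positive, with a median of -0.057 (-0.013 and -0.049), and none passed. Il3ra, the alpha chain of the interleukin-3 receptor, read 7.06, 7.54 and 7.07 in the Tm1N3 tumours, against 6.71, 6.29 and 6.46 in the Tm1G3 tumours. It did not overlap and missed the threshold (difference 0.74 ± 0.16, limma adjusted p = 0.0592). Il17b, an interleukin-17 family ligand, read 9.52, 9.90 and 9.56 in the Tm1N3 tumours, against 9.12, 8.96 and 8.43 in the Tm1G3 tumours, at a difference of 0.82 ± 0.17 with the same adjusted p.

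Of 21 angiogenic factors and receptors 14 were positive, with a median of 0.056 (0.055 and -0.014), and Angptl2 passed as higher. Vegfc, a lymphatic growth factor, read 7.15, 7.18 and 7.23 in Tm1N3 tumours of Gal3 -/- hosts, against 6.88, 6.96 and 6.82 in Tm1G3 tumours of wild-type hosts. The groups lay apart and the difference was 0.30 ± 0.074 (limma, adjusted p = 0.096). Angpt2, the angiopoietin that loosens vessels, differed by 0.31 ± 0.15 (adjusted p = 0.471) with overlapping groups. Of 38 members of the TGF beta and activin family 14 were positive, with a median of -0.047 (-0.013 and -0.038), and Bmp15 passed as lower. Tgfb1 itself read 7.98, 8.28 and 8.15 in the Tm1N3 tumours and 7.84, 7.33 and 8.0 in the Tm1G3 tumours, a difference of 0.42 ± 0.19 (adjusted p = 0.449). With the hosts exchanged Tgfb1 differed by -0.42 ± 0.19 (adjusted p = 0.345), which leaves a line part of -0.0037 ± 0.13 and a host part of 0.42 ± 0.13 (adjusted p = 0.68). Of 26 fibroblast growth factors 14 were positive, with a median of 0.01 (-0.0047 and 0.026), and of 37 Notch, Wnt and growth factor genes 21, with a median of 0.024 (0.046 and -0.053). None was called in either list.

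Matrix genes had differences of both signs. Of the 8 fibroblast and matrix genes 2 were positive, with a median of -0.22 (-0.21 and -0.73), and Frem1 passed. Fbln5, a protein of elastic fibres, read 5.68, 5.89 and 5.23 in the Tm1N3 tumours, against 5.00, 5.00 and 4.93 in the Tm1G3 tumours, and did not pass (difference 0.63 ± 0.16, limma adjusted p = 0.107). Of 12 adhesion molecules 4 were positive, with a median of -0.034 (0.043 and -0.19), and none passed. Of 25 proteoglycan core proteins 8 were positive, with a median of -0.031 (-0.044 and -0.066), and none passed. Sdc2, a syndecan that carries heparan sulfate, read 8.23, 8.42 and 8.25 in the Tm1N3 tumours, against 9.03, 8.81 and 8.59 in the Tm1G3 tumours, without overlap. Gpc6, a glypican, read 6.46, 6.87 and 6.82 in the Tm1N3 tumours, against 7.12, 7.34 and 7.17 in the Tm1G3 tumours. Both lay lower on every Tm1N3 array, at -0.51 ± 0.13 and -0.50 ± 0.12, with an adjusted p of 0.096 for each. Sdc1, another syndecan, lay higher on every Tm1N3 array, at 0.29 ± 0.092 (adjusted p = 0.188).

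Galectin-3 binds galactose, which sialic acid can cap. Of 19 sialyltransferases 3 were positive, with a median of -0.09 (-0.039 and -0.11), and none passed. In 5 of the 19 the groups did not overlap, against 15.0% of all probe sets. St6galnac6, which adds sialic acid to gangliosides, read 7.94, 7.95 and 7.68 in Tm1N3 tumours of Gal3 -/- hosts, against 8.22, 8.18 and 8.30 in Tm1G3 tumours of wild-type hosts. Its difference was -0.38 ± 0.082 (limma, adjusted p = 0.0592). St3gal3, an enzyme of alpha 2,3 sialylation, differed by -0.40 ± 0.12 (adjusted p = 0.178). St6gal1, the main enzyme of alpha 2,6 sialic acid caps on N-glycans, read 11.27, 11.61 and 11.23 in the Tm1N3 tumours and 12.29, 11.68 and 11.60 in the Tm1G3 tumours, and the groups overlapped (difference -0.49 ± 0.17, adjusted p = 0.221).

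Of 23 galactosyltransferases 9 were positive, with a median of -0.02 (-0.00088 and 0.013), and B3galt4 passed as higher. B3galt5, which builds type 1 chains, read 6.39, 6.84 and 6.24 in the Tm1N3 tumours, against 7.10, 7.15 and 6.88 in the Tm1G3 tumours, opposite in direction to B3galt4 and short of the threshold (difference -0.55 ± 0.15, limma adjusted p = 0.107). B4galt4 and B4galt5, of the family that makes N-acetyllactosamine and lactosylceramide, differed by -0.49 ± 0.15 and 0.30 ± 0.11. Of 22 GlcNAc transferases of branching and extension 10 were positive, with a median of -0.021 (0.018 and 0.0088), and none passed. Mgat3, which adds the bisecting GlcNAc, read 5.03, 4.90 and 4.95 in the Tm1N3 tumours, against 5.29, 5.48 and 5.29 in the Tm1G3 tumours, at a difference of -0.39 ± 0.084 (adjusted p = 0.0592). B3gnt3, which extends O-glycan cores, differed by -0.42 ± 0.085 with the same adjusted p and no overlap.

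Of 19 polypeptide GalNAc transferases 9 were positive, with a median of -0.017 (0.013 and -0.013). Galnt10 passed as lower, whereas Galnt2 differed by 0.34 ± 0.11 (limma, adjusted p = 0.202). Of 10 fucosyltransferases 6 were positive, with a median of 0.015 (0.026 and 0.04), among them Fut11 at 0.56 ± 0.15 (adjusted p = 0.107). Of 27 genes of heparan sulfate synthesis and cleavage 14 were positive, with a median of 0.06 (0.041 and -0.0099), and none passed. Hpse, the heparanase that cuts these chains, read 10.40, 10.42 and 10.13 in the Tm1N3 tumours, against 10.54, 11.03 and 11.00 in the Tm1G3 tumours, lower on every array but not called (difference -0.54 ± 0.14, adjusted p = 0.107). Of 18 chondroitin and hyaluronan genes 11 were positive, with a median of 0.038 (0.036 and -0.031). Of 47 genes of nucleotide sugar supply and transport 21 were positive, with a median of -0.013 (-0.032 and 0.037), and none was called in either list. Slc35b1 and Slc35b3, transporters of the secretory pathway, differed by 0.36 ± 0.094 and 0.44 ± 0.13.

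Lysosomal genes spread widely on both sides of 0. Of 29 genes of lysosomal glycan breakdown 21 were positive, with a median of 0.05 (0.083 and 0.065), 12 had an unadjusted limma p under 0.05 and 10 had groups that did not overlap, where 11.0% and 15.0% of all probe sets did. Mcoln3 passed as higher, and it is a channel of these organelles rather than an enzyme. Galc, which splits galactosylceramide, read 9.69, 10.01 and 9.71 in the Tm1N3 tumours, against 9.40, 9.32 and 9.06 in the Tm1G3 tumours. It differed by 0.54 ± 0.12 and missed the threshold (adjusted p = 0.0633). Arsb, the sulfatase of dermatan sulfate, read 9.71, 9.95 and 9.77 in the Tm1N3 tumours, against 10.46, 10.36 and 10.28 in the Tm1G3 tumours, lower on every array at -0.56 ± 0.11 (adjusted p = 0.0592). Galns, a sulfatase of keratan sulfate, was also lower on every array at -0.37 ± 0.089 (adjusted p = 0.0763).

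Of 11 genes of galectins and of the galectin-9 receptor TIM-3, 4 were positive, with a median of -0.013 (0.02 and -0.041), and none passed. Lgals7, galectin-7, read 8.54, 8.25 and 7.53 in Tm1N3 tumours of Gal3 -/- hosts, against 7.04, 7.05 and 7.29 in Tm1G3 tumours of wild-type hosts. All Tm1N3 arrays were higher, at a difference of 0.98 ± 0.21 (limma, adjusted p = 0.0592). Lgalsl, a galectin-like gene, read 7.39, 7.24 and 6.82 in the Tm1N3 tumours, against 7.78, 7.78 and 7.76 in the Tm1G3 tumours, lower on all arrays at -0.62 ± 0.13 with the same adjusted p. Lgals1, galectin-1, differed by -0.18 ± 0.09 (adjusted p = 0.511). Havcr2, which encodes TIM-3, an immune checkpoint receptor, read 5.84, 5.91 and 5.77 in the Tm1N3 tumours, against 6.25, 6.07 and 6.10 in the Tm1G3 tumours, at -0.30 ± 0.066 (adjusted p = 0.0592). Of 9 siglecs 3 were positive, with a median of -0.046 (-0.024 and -0.068), and of 48 C-type lectins, selectins and collectins 21, with a median of -0.023 (-0.028 and -0.088). None was called in either list.

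**Figure D5:**
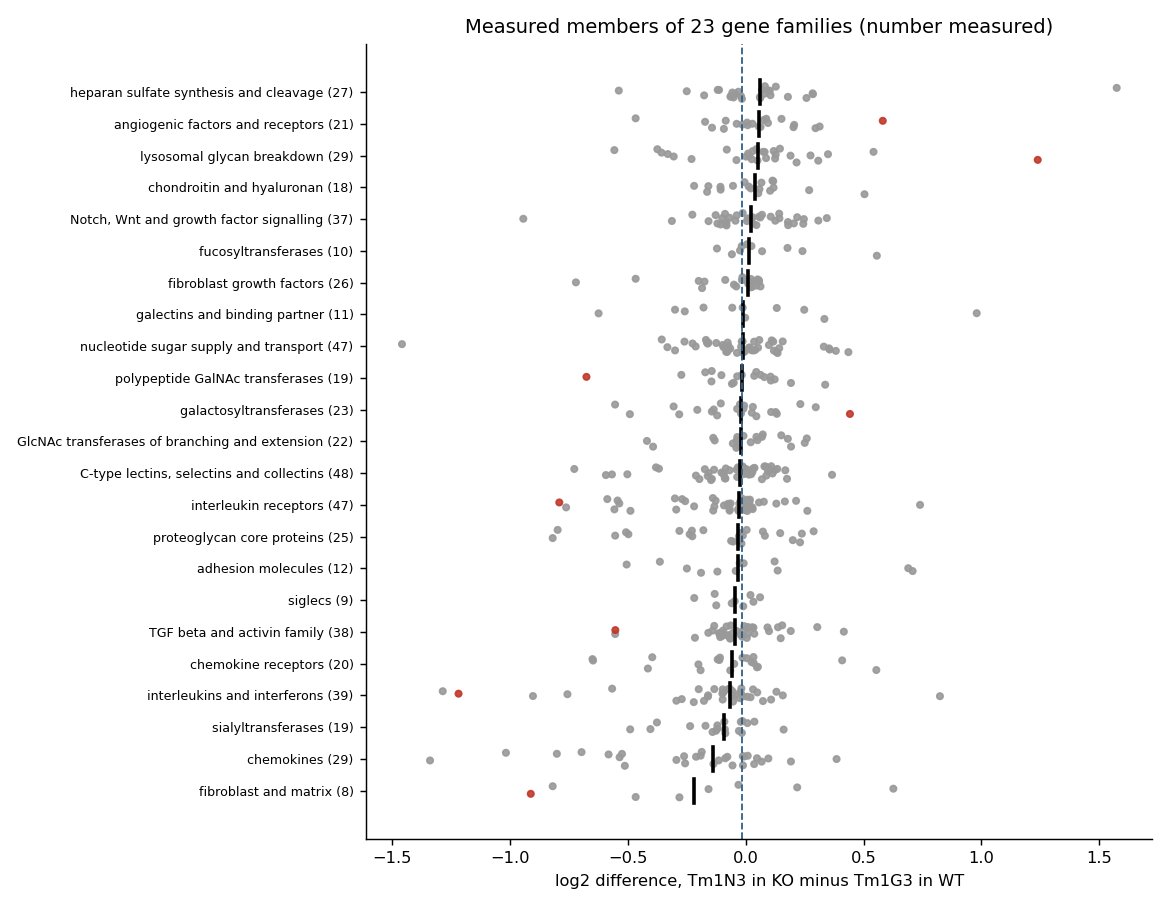
Log2 difference (Tm1N3 in Gal3 -/- hosts minus Tm1G3 in wild-type hosts, horizontal axis) of each measured member of 23 gene families, with the number measured in brackets; red points passed an adjusted p of 0.05, black bars are family medians and the dashed line is the median of all probe sets. Medians lie between -0.22 for fibroblast and matrix genes and 0.060 for heparan sulfate genes, 11 of the 23 change sign without 1 of 2 libraries, and each red point is a single member far from its family's median.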

How the data were processed

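Biotinylated cRNA was made from Trizol-extracted RNA for an Affymetrix array, by the labels' protocols. The values the authors deposited are log2 levels made with RMA, per the submitters' processing notes, which give no version. They were used as deposited (2.14 to 13.9, array medians within 0.0945), and no scanner files were used, so signal over background is unknown. Probe sets were named by RefSeq accession through a table of mouse genes of GRCm38.p6. Of 1246, 963 matched 1 symbol, and 275 carry a suffix for shared probes.

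The 4 group means were fitted over 12 arrays with limma 3.58.1 in R 4.3.3 (lmFit and eBayes, 8 residual and 2.39 prior degrees of freedom), with Benjamini-Hochberg adjustment across all probe sets and a threshold of 0.05. Fitting all groups gives them 1 estimate of spread. Errors of differences are moderated SE. The interaction of line and host had 0 calls in limma, with 35 probe sets at an unadjusted p under 0.05. Lists use the probe set of highest mean level per gene.

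The compared groups, the 23 family and 9 marker lists and the tests were chosen with earlier results of these data known. Named genes are all called ones, those among the 20 smallest p, the 5 largest uncalled differences on either side, Lgals3, up to 4 of smallest p per list, and the 5 smallest p of the host part. The alternatives were 12 fits with 1 array left out, other normalisation, filters and models. The procedure was also run on simulated data, but the outcome is not reported here and is no evidence for the calls.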

Additional observations from a re-analysis of the deposited data

Results flagged for a closer look

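In 3 genes every array separated the groups one way in this comparison and the opposite way with the hosts exchanged. Cd209b, a C-type lectin of marginal zone macrophages, read 4.68, 4.70 and 4.67 in Tm1N3 tumours of Gal3 -/- hosts, against 4.90, 4.77 and 5.00 in Tm1G3 tumours of wild-type hosts, a difference of -0.211. With the hosts exchanged it was 0.42 ± 0.086. Its other probe set differed by 0.042 (limma, adjusted p = 0.91). Il12a, the p35 chain of interleukin-12, differed by -0.199 here and by 0.14 ± 0.07 with the hosts exchanged. Mbl1, a mannose-binding collectin, differed by -0.157 here and by 0.18 ± 0.062 with the hosts exchanged.

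The host part is the test of that difference, since it is 0.5 times the gap between the comparisons. It was -0.32 ± 0.061 for Cd209b (limma, adjusted p = 0.226), -0.17 ± 0.05 for Il12a (adjusted p = 0.68) and -0.17 ± 0.044 for Mbl1 (adjusted p = 0.68), so none passed. Over all 1246 probe sets 9 separated in opposite ways and 60 in the same way in both comparisons.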

How the results depend on the processing

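Tm1N3 tumours of Gal3 -/- hosts minus Tm1G3 tumours of wild-type hosts gave 8 calls. The count was 2 when only the 6 arrays of the comparison were fitted (Il18 and Frem1) and 18, with all 8 among them, when line and host were fitted as additive. Counted over the gene lists, the 8 became 2 and 16 under these settings. Leaving out 1 array at a time gave 6 to 11. Normalising by quantiles again gave 11 calls, 5 of them higher, where the deposited values gave 3 of 8, 57 in the line part, 29 of them higher, where they gave 16 of 53, and 15 with the hosts exchanged, 8 of them higher, where they gave 4 of 11.

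The comparison with the hosts exchanged gave 11 calls, 20 with the dimmest 25% of probe sets left out, 17 from its own 6 arrays, 20 with the additive model, and 5 to 23 with 1 array left out. The line part gave 32 to 63 calls with 1 array left out, and the host part 0 throughout, although 78 probe sets had an unadjusted limma p under 0.05. The cause of these shifts was not tested.

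Lgals3 ran from -0.097 without replicate 3 of Tm1N3 in Gal3 -/- hosts to 0.51. With 1 array left out, Cxcl2 ran from -2.30 to 0.31, Il1b from -2.09 to 0.27 and Mrc1, a macrophage receptor, from -0.91 to 0.027, the last without replicate 1 of Tm1N3 in Gal3 -/- hosts. Over the 67 other named genes checked, Lgals3 left aside, 448 of the values under the other alternatives kept direction and side of the threshold, 12 gained and 7 lost the call, and 776 did so with 1 array left out, where 14 gained, 11 lost and 3 (Cxcl2, Il1b and Mrc1) changed sign.

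Replicate numbers did not pair these groups, since deviations of same-numbered arrays correlated at -0.481, 0.401 and 0.0461. A fit with the replicate number as a block gave 11 calls, 7 of them among the 8, the exception being Angptl2, and 10 over the lists. With the hosts exchanged the block gave 16, in the line part 50 and in the host part 0, and it left Lgals3 at 0.25.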

Other observations

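Igfbp4, a binding protein of insulin-like growth factors, read 9.77, 10.03 and 9.98 in Tm1N3 tumours of Gal3 -/- hosts, against 9.66, 9.49 and 9.56 in Tm1G3 tumours of wild-type hosts. The groups did not overlap, and the difference of 0.36 ± 0.082 did not pass (limma, adjusted p = 0.0717). Unlike the called genes, it differed by -0.071 ± 0.082 with the hosts exchanged, and its host part of 0.21 ± 0.058 (limma, adjusted p = 0.68) was larger than its line part of 0.14 ± 0.058. The other 2 probe sets of the gene differed by 0.19 and 0.28 here, and this one was named for its rank in the host part. Cxcr3, a receptor for interferon-induced chemokines, read 7.93, 7.80 and 7.51 in Tm1N3 tumours of Gal3 -/- hosts, against 6.77, 7.50 and 7.31 in Tm1G3 tumours of wild-type hosts, a difference of 0.55 ± 0.17 (adjusted p = 0.178).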
